A study of Mus musculus with 16 samples.

Results

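The transcripts of the mitochondrial genome were taken as the rows of the deposited tables whose gene symbol begins with mt-. There were 36 such rows among 36829 features, made up of 13 mRNAs, 2 rRNAs and 21 tRNAs, and mt-Td, the remaining one of the 37 genes annotated on the mitochondrial genome, was not analysed here. RNA came from the cortical bone of the femur of female C57Bl/6 mice aged 11 weeks, after the ends of the bone had been removed and the marrow washed out. In the HLU group (n = 8) the hindlimbs were unloaded by tail suspension for 7 days, and the Control group (n = 8) bore weight normally. No allele or transgene distinguished the groups, and the samples were described as separate mice. HLU mice were put into the harness under isoflurane, and no anaesthesia is described for Control mice. The comparison asks whether disuse alters the RNA content of cortical bone.

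The mitochondrial genome is a small circle of DNA, present in many copies per cell, that encodes core subunits of the respiratory chain together with the rRNAs and tRNAs needed to translate them inside the organelle. Both strands are transcribed as long precursors by a dedicated polymerase. The precursors are cut mainly at the tRNAs that lie between the other genes, so the mature RNAs of a strand begin as parts of one molecule and their steady levels also depend on how fast each is degraded. Most genes lie on one strand, and mt-Nd6 is the only mRNA encoded on the other. Cells with many mitochondria, such as osteoclasts and muscle fibres, are rich in these RNAs, and red blood cells lose their mitochondria as they mature.

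Stretches of this genome have also been copied into the nuclear chromosomes, and the copies decide which short reads can be placed uniquely. In the GENCODE M21 transcripts (GRCm38), 7 pseudogenes in a row at chr1:24611535-24616197, on the minus strand, repeat the mitochondrial genome from within mt-Co1 to within mt-Nd4. The pseudogene Gm28661 was identical to mt-Co2 over 681 bases, and those of mt-Atp6, mt-Co3 and mt-Nd4l were identical over 678, 783 and 294 bases. The same 90 bases of mt-Co2 (chrM:7313-7402, plus strand, exonic and coding) and of its copy illustrate the identity.
mt-Co2: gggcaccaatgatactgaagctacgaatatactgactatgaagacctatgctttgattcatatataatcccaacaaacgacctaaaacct
Gm28661: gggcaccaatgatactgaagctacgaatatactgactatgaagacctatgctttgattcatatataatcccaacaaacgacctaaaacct
The copy of mt-Nd3 differed by 1 base in 345, T3C counted from the first base of the gene (chrM:9459-9505, plus strand), shown in capitals.
mt-Nd3: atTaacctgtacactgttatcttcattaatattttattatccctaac
Gm28438: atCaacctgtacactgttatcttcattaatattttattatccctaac
The copy of mt-Nd4 ended inside the gene, after its first 876 bases. In the stretch shown (chrM:10998-11087, plus strand) the bases in capitals lie past the end of the copy.
mt-Nd4: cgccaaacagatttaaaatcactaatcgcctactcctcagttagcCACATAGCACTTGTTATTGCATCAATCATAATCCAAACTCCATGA
Copies of other genes had diverged. Gm11410 on chromosome 4 matched mt-Cytb at 92.9% over 1142 bases, and 8 of the 90 bases at chrM:14445-14534 (plus strand), in capitals, differed between them.
mt-Cytb: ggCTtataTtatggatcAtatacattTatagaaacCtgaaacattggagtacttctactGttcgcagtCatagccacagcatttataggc
Gm11410: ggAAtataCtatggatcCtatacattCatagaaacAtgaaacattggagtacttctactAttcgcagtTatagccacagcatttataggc

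The levels of the 13 mRNA rows fell into 2 ranges. Levels are given as RPKM, reads scaled to the length of the gene and to the mapped reads of the library, so that they can be compared between genes. mt-Co1, the catalytic subunit of cytochrome c oxidase, had the highest mean over the 16 mice, 19663 RPKM. It was followed by mt-Cytb, the cytochrome b of complex III, at 16614 RPKM and by the complex I subunits mt-Nd1 at 13112 RPKM and mt-Nd2 at 12027 RPKM. mt-Nd6, mt-Nd4 and mt-Nd5, also of complex I, had means of 7783, 5706 and 5124 RPKM. No other mRNA row had a mean above 60.6 RPKM.

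The 6 mRNA rows of the lower range were mt-Nd3 at 60.6, mt-Co3 at 37.1, mt-Co2 at 36.9, mt-Atp6 at 30.0, mt-Nd4l at 13.5 and mt-Atp8 at 8.37 RPKM. They encode 2 small subunits of complex I, the other 2 core subunits of cytochrome c oxidase, and the 2 mitochondrial subunits of ATP synthase. These genes are neighbours on the genome, and 5 of them are the genes repeated along their length on chromosome 1. Between 98.0% and 100% of all stretches of 50 bases in those 5 genes also occurred in a nuclear transcript, against 51.1% in mt-Co1, 62.2% in mt-Nd4, 8.19% in mt-Nd2, 7.61% in mt-Nd5 and 0% in mt-Nd1, mt-Nd6 and mt-Cytb. For mt-Atp8 the share was 0%, but its gene lies between mt-Co2 and mt-Atp6, whose copies on chromosome 1 were 233 bases apart, as were the matched bases on the mitochondrial genome. The last 43 bases of mt-Atp8 are also the first of mt-Atp6. The part of these copies in the low values was not tested, and a row of the lower range holds only those reads that the authors' alignment placed on it. mt-Co2 was thus listed between 14.9 and 61.3 RPKM over the 16 mice. Gm10222, the copy of mt-Nd4l and the one member of the block on chromosome 1 listed in the tables, had a mean of 2.97 RPKM. Also listed was Gm13341 on chromosome 2, a copy of mt-Co2 with 95.9% identity over 684 aligned bases. Its mean was 29.0 RPKM, with a range of 12.8 to 55.6 RPKM. No other listed pseudogene copy had a mean above 4.43 RPKM, that of Gm13340, a copy of mt-Co1.

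**Figure D1:**
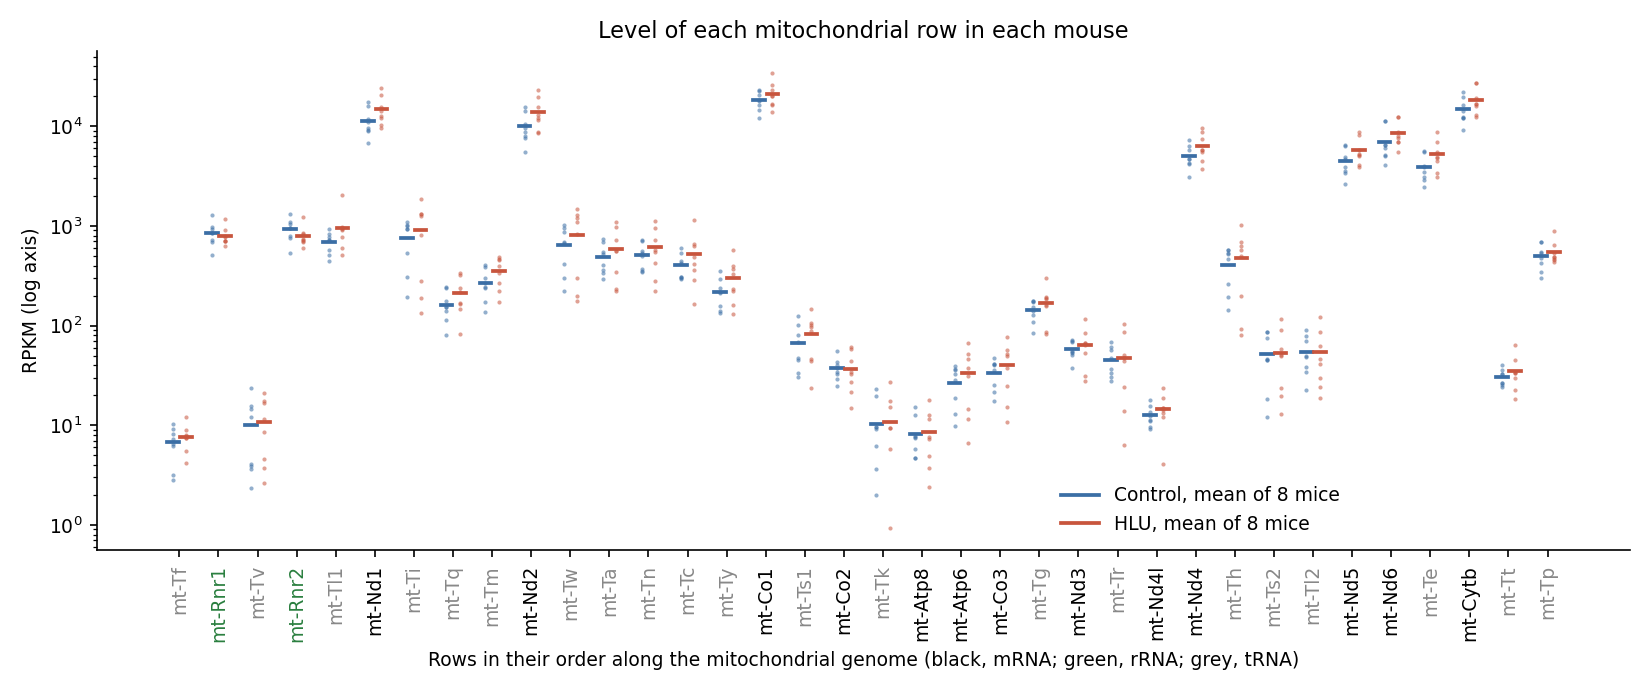
RPKM on a log axis for each of the 36 mitochondrial rows, in the order of the genes along the mitochondrial genome, with 1 point per mouse and a bar at the mean of the 8 Control (blue) and 8 HLU (red) mice. The mRNA rows from mt-Co2 to mt-Nd4l have means of 8.37 to 60.6 RPKM, while mt-Nd1, mt-Nd2, mt-Co1, mt-Nd4, mt-Nd5, mt-Nd6 and mt-Cytb have means of 5124 to 19663 RPKM; 1 value of mt-Tk at 0 is not drawn.

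The rRNA rows were far below the abundant mRNAs. mt-Rnr1, the 12S rRNA of the small mitochondrial ribosomal subunit, had a mean of 824 RPKM and mt-Rnr2, the 16S rRNA of the large subunit, one of 863 RPKM. The library kit selects RNA by its poly(A) tail, and mitochondrial rRNAs carry only short tails, so these rows do not count ribosomes. Among tRNA rows, mt-Te (tRNA for glutamate) had the highest mean, 4574 RPKM, and mt-Ti, mt-Tl1, mt-Tw and mt-Tn followed at 829.7, 824, 731 and 558 RPKM. The tRNAs are so short that a fragment longer than the tRNA must run into its neighbours. The kit does not mark strand either. Reads over mt-Nd6 and mt-Te, which lie next to each other on the minus strand, could therefore not be told apart from antisense RNA transcribed from the opposite strand.

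The libraries differed in depth and in one further respect that touched the mitochondrial rows. The number of reads by which RPKM had been divided, recovered from the values, ran from 7067512 to 19708590 in Control and from 7838277 to 21363584 in HLU libraries. Control 1, Control 2, HLU 1, HLU 2 and HLU 3 stood apart from the other 11 libraries. The small nucleolar RNA Snora21 ran from 109 to 138 RPKM in these 5 and from 15.04 to 33.6 RPKM in the others, and the complex I subunit Ndufb6 from 9.01 to 14.9 against 29.3 to 56.5 RPKM. No label names a batch, the 5 were picked out after their values had been seen, and results are given with and without them. RNA of osteocytes, the cells embedded in the matrix, was present, with all 6 of 6 osteocyte genes detected and a summed level of 178.7 to 598.0 RPKM. RNA of neutrophils, a cell type of marrow, was present too, with 6 of 8 listed genes found and sums of 12268 to 44001 RPKM. The 6 osteoclast genes summed to 648 to 1848 RPKM. Sums of different genes do not measure numbers of cells.

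Mitochondrial rows took a large part of the RNA of listed features, and on average a larger one after unloading. Their share of the summed RPKM of a library was lowest at 14.05%, had a median of 21.9% and was highest at 28.4% in Control mice, and in HLU mice these values were 17.5%, 25.9% and 39.8%. The groups overlapped, although the share exceeded the Control median in 6 of 8 HLU mice and every Control value in 3. Mean shares were 22.1% ± 4.86 (SD, n = 8) for Control and 28.2% ± 8.29 (SD, n = 8) for HLU, which differed by 6.14 percentage points. Since the share sums the rows under study, it was given no test. Leaving out the 5 libraries that stood apart raised the difference to 9.07 points, from 20.2% ± 4.07 (SD, n = 6) to 29.3% ± 7.68 (SD, n = 5), and within those 5 it was of the other sign, at 27.6% (n = 2) and 26.4% (n = 3).

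Counted in reads, the mitochondrial share was 8.80% ± 2.38 of the reads dividing the RPKM for Control (SD, n = 8) and 10.9% ± 3.35 for HLU (SD, n = 8). Of the reads on listed features it was 9.91% ± 2.58 and 13.0% ± 4.27, but this total rests on lengths of nuclear features inferred from the values, and another recovery of those reads can give another share. The 13 mRNA rows held 96.6% ± 0.552 of the mitochondrial reads in Control and 97.3% ± 0.373 in HLU mice. The rRNA rows held 2.64% ± 0.502 and 1.91% ± 0.356. In bulk tissue, a change in the number of cells of a type and a change in RNA per cell cannot be told apart.

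No single mitochondrial row passed the test for a difference between HLU and Control. The test was limma on log2(RPKM + 0.1), run over the 16973 features whose mean reached 0.5 RPKM, all 36 rows among them. A feature was called at an unadjusted p under 0.05 with a change of at least 1.2-fold, and separately at a Benjamini-Hochberg adjusted p under 0.1. By the first rule 0 of 36 rows were called in either direction, against 5.87% of all features tested (1.11% higher and 4.76% lower in HLU). By the second rule no feature of the table was called, with a lowest adjusted p of 0.256 in limma, while 1049 features had an unadjusted p under 0.05.

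The 7 abundant mRNAs nevertheless all had estimates above 0, whereas the middle of the table lay below it. Their log2 fold changes ran from 0.20 to 0.48 with a median of 0.33, and the median over all features tested was -0.10, with 32.1% of features above 0. Where the middle of the table lay depended on the scaling. With each library scaled to its sum outside the mitochondrial genome, the median of all features was 0.03 with 56.8% above 0, and that of the 7 mRNAs was 0.47 with all 7 above 0. With quantile normalization mt-Co1 turned to -0.11. mt-Nd2, a complex I subunit, had the largest estimate. Its level was lowest at 5517 RPKM, had a median of 9184 and was highest at 15649 in Control mice, and in HLU mice it was 8481, 12600.1 and 22940.1 RPKM. Of the 8 HLU mice, 6 were above the Control median and the ranges overlapped. The log2 fold change was 0.48 (SE 0.27, adjusted p = 0.744 in limma).

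mt-Nd1, which follows the rRNA genes on the genome, ran from 6820.5 through a median of 10328 to 17588 RPKM in Control and from 9643 through 13410.2 to 23940.4 RPKM in HLU mice. Of the HLU mice, 7 of 8 exceeded the Control median, at a log2 fold change of 0.39 (SE 0.25, adjusted p = 0.750 in limma). mt-Co1 ran from 12103 through 17983 to 23080.3 RPKM in Control and from 13851 through 20192 to 33818 RPKM in HLU mice, and had the smallest estimate of the abundant mRNAs, 0.20 (SE 0.23). mt-Cytb, mt-Nd4, mt-Nd5 and mt-Nd6 lay between, with 0.32, 0.31, 0.36 and 0.33.

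The 6 mRNA rows of the lower range had log2 fold changes of -0.12 to 0.11, 4 of them above 0, with a median of 0.06. mt-Atp6, for example, ran from 9.91 to 39.2 RPKM in Control and from 6.61 to 66.9 RPKM in HLU mice, and its SE of 0.46 exceeded its estimate of 0.11. The SD of these rows between mice was 0.54 to 0.99 on the log2 scale, against 0.37 to 0.50 for the abundant mRNAs. The 2 rRNA rows had estimates below 0, -0.07 (SE 0.18) for mt-Rnr1 and -0.21 (SE 0.18) for mt-Rnr2. mt-Rnr2 was lower in HLU than the Control median in all but 1 mouse. After scaling to the sum outside the mitochondrial genome the estimates were 0.07 for mt-Rnr1 and -0.07 for mt-Rnr2, so the direction of mt-Rnr1 depended on the scaling.

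Of the 21 tRNA rows, 15 had estimates above 0 and 6 below, from -0.70 to 0.42 with a median of 0.14. mt-Te, beside mt-Cytb, had 0.42 (SE 0.24) and mt-Tl1, a leucine tRNA between mt-Rnr2 and mt-Nd1, 0.40 (SE 0.24). mt-Tk, at the lower end, was listed at 0 in 1 HLU mouse and rested on at most 29 reads per library. All 8 tRNA rows on the minus strand had estimates above 0, and of the 13 on the plus strand 7 lay above and 6 below. None was called on either strand. Since the kit does not mark strand, these counts cannot be assigned to RNA of one strand. Calls appeared when 1 mouse was left out, mt-Nd2 without Control 2 and 3 tRNA rows without HLU 2, each higher in HLU, where 0.872% and 2.14% of all features were called higher. With voom on recovered reads 2 rows were called higher (1.56% of all features), and without Control 2 and HLU 5, the 2 smallest libraries, 5 rows (0.636% of all features).

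**Figure D2:**
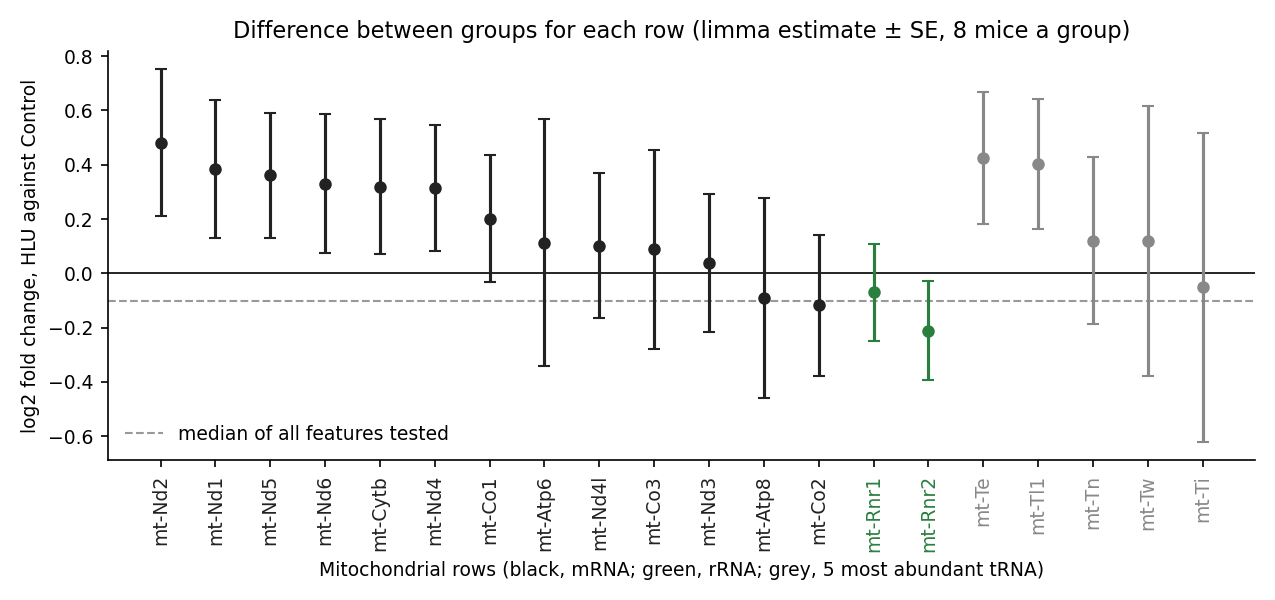
Log2 fold change of HLU against Control with its standard error for the 13 mRNA rows, the 2 rRNA rows and the 5 most abundant tRNA rows, from limma on 8 mice a group, with a dashed line at the median of all features tested. The 7 abundant mRNAs, mt-Te and mt-Tl1 lie at 0.20 to 0.48, while the rRNA rows lie at -0.07 and -0.21.

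The 5 libraries that stood apart bore on these counts. Without them, 8 of the 36 rows passed an unadjusted p of 0.05 and 1.2-fold, all higher in HLU, where 2.64% of all features were called higher and 9.23% lower. The 8 rows were mt-Nd2, mt-Atp6, mt-Co3, mt-Te, mt-Tl1, mt-Tw, mt-Tg and mt-Tt, with log2 fold changes of 0.44 to 0.69 and adjusted p values of 0.411 to 0.417 in limma, and 1 feature of the table (0.00589%) passed the adjusted rule. With all 16 libraries and the set of libraries as a covariate, 0 of 36 rows passed, where 2.64% of all features were called higher and 7.06% lower (9.7% in all), and 0.00589% by the adjusted rule. Whether the 5 libraries differed for a technical or another reason was not tested.

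Ratios between transcripts of the same mouse do not depend on how a library is scaled, and 8 such ratios were compared between the groups by exact permutation of the group labels, two-sided. A ratio was called at an adjusted p under 0.05, a stricter cut than the 0.1 used for features. The ratio of mt-Nd2 to mt-Nd1, with an adjusted p of 0.0568 in this test, passed 0.1 but not 0.05. The 2 ratios called both include mt-Rnr2, an rRNA row, and the kit selects RNA by its poly(A) tail. The part of this selection in the ratios was not tested. Of the 2 ratios called, the one with the larger difference set an mRNA against an rRNA of the same strand. The ratio of mt-Nd1 to mt-Rnr2 ran from 9.12 through a median of 12.03 to 20.4 in Control and from 14.2 through 16.9 to 28.2 in HLU mice. The ratio exceeded the Control median in all 8 HLU mice and every Control value in 2, and Control 5, at 20.4, stood above the other Control mice, which reached 14.4. On the log2 scale the ratio was 3.59 ± 0.40 (SD, n = 8) for Control and 4.19 ± 0.33 (SD, n = 8) for HLU. The ratio was thus 1.51-fold higher in HLU (exact permutation p = 0.0071, adjusted p = 0.0286 over the 8 ratios). Of the reads dividing the RPKM, 11.2% ± 4.28 (SD, n = 8) in Control and 15.03% ± 5.29 (SD, n = 8) in HLU lay outside listed features. This share rests on inferred lengths of nuclear features. It was highest in Control 5 (18.6%) and HLU 7 (23.7%), but Control 1 had the lowest, 6.75%, at a ratio of 14.4. Whether the ratio of mt-Nd1 to mt-Rnr2 depends on this share was not tested.

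The difference in this ratio was of like size in both sets of libraries, 0.58 on the log2 scale in the other 11 and 0.53 in the 5 that stood apart. Without the 5 the exact permutation p was 0.0325 (adjusted p = 0.110), and with the set of libraries as a term it was 0.0108 (adjusted p = 0.0433). Leaving out single mice kept the direction, with differences of 0.51 to 0.70, and took the adjusted p to between 0.0037 and 0.0584. It was above 0.05 when Control 4, Control 6, Control 7, HLU 1, HLU 3 or HLU 7 was left out.

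The 2 rRNAs, which are transcribed next to each other, also shifted against each other. The ratio of mt-Rnr2 to mt-Rnr1 ran from 1.01 through 1.09 to 1.22 in Control and from 0.937 through 0.995 to 1.06 in HLU mice. None of the 8 HLU mice reached the Control median, and 5 were below every Control mouse. On the log2 scale it was 0.13 ± 0.09 (SD, n = 8) for Control and -0.01 ± 0.06 (SD, n = 8) for HLU, a fall to 0.907 of the Control value (exact permutation p = 0.0040, adjusted p = 0.0286 over the 8 ratios). This ratio shares mt-Rnr2 with the ratio above, so the 2 results are not independent. Without the 5 libraries that stood apart the difference was -0.12 on the log2 scale (exact permutation p = 0.0411, adjusted p = 0.110). The call at 0.05 was also lost when Control 4, Control 6, HLU 1, HLU 3 or HLU 7 was left out. The adjusted p was then between 0.0522 and 0.0584 by the exact permutation test, still under 0.1.

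The ratio of mt-Nd2 to mt-Nd1, neighbours separated by tRNAs, varied little between mice, and its call at 0.05 depended on 1 of them. It ran from 0.809 through 0.892 to 0.902 in Control and from 0.820 through 0.954 to 0.992 in HLU mice. 7 of the 8 HLU mice lay above every Control mouse, and HLU 2 alone lay at 0.820. With all mice the ratio was 1.07-fold higher in HLU (exact permutation p = 0.0213, adjusted p = 0.0568 over the 8 ratios), and without HLU 2 the adjusted p was 0.0012. HLU 2 had the lowest mitochondrial share of its group, 17.5%. In the other 11 libraries the difference was 0.14 on the log2 scale (exact permutation p = 0.0022, adjusted p = 0.0173), and within the 5 that stood apart it was 0.005.

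**Figure D3:**
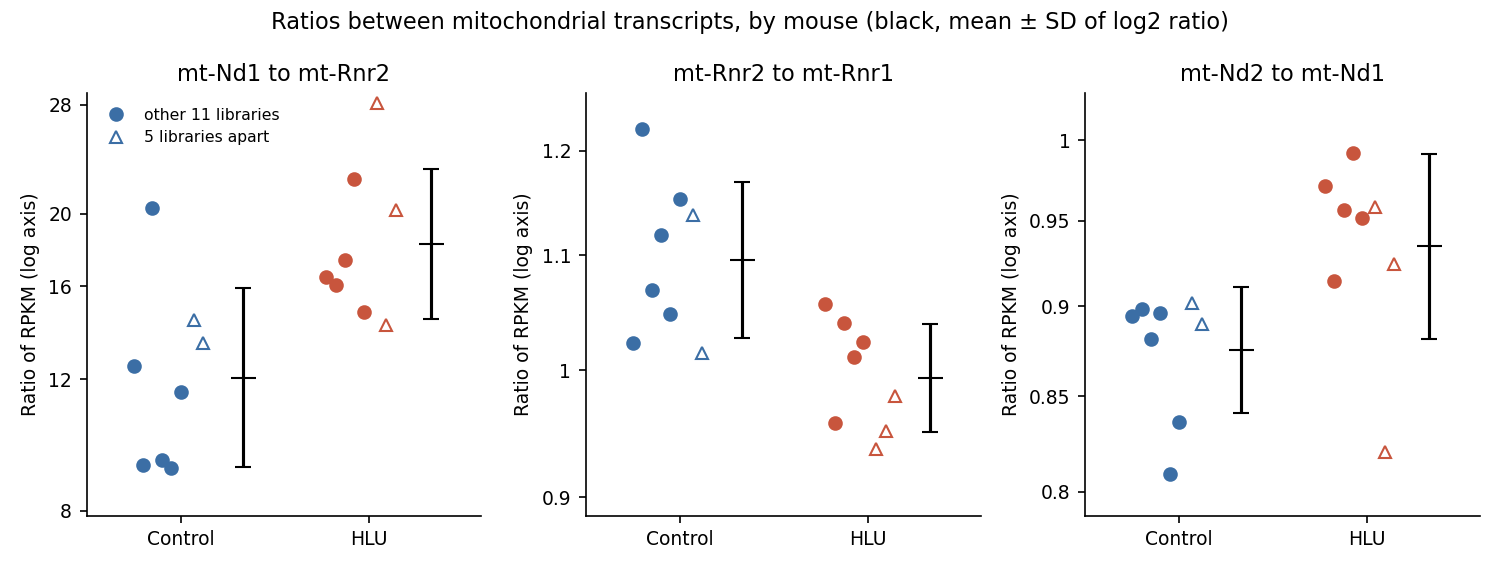
Ratio of RPKM between pairs of mitochondrial transcripts in each mouse, on log axes, for mt-Nd1 to mt-Rnr2, mt-Rnr2 to mt-Rnr1 and mt-Nd2 to mt-Nd1, with Control in blue, HLU in red, open triangles for the 5 libraries that stood apart and black bars at the mean ± SD of the log2 ratio. The 8 HLU points on the left lie above the Control median of 12.03, and the 8 in the middle lie below the Control median of 1.09.

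Other ratios gave no call. mt-Co1 to mt-Nd1 fell by 0.18 on the log2 scale (adjusted p = 0.266 by the exact permutation test over the 8 ratios), and mt-Cytb to mt-Nd1 by 0.07 (adjusted p = 0.405). The ratio of mt-Nd6 to mt-Nd5, whose genes overlap by 14 bases on opposite strands, differed by -0.03 between the groups (adjusted p = 0.793), and mt-Nd6 to mt-Cytb by 0.01 (adjusted p = 0.896). mt-Atp8 to mt-Atp6 differed by -0.20 (adjusted p = 0.793), with SDs of 1.11 in Control and 0.71 in HLU mice. The levels of mt-Nd1 and mt-Rnr2 rested on at least 72334 and 7442 reads in every library, so that counting error was small beside the spread between mice. For mt-Atp8 the smallest number was 6 reads.

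The abundant mRNAs rose and fell together from mouse to mouse. After subtraction of the group means, the log2 levels of the 7 mRNAs had a median pairwise Pearson r of 0.946 (range 0.801 to 0.993) and a median Spearman rho of 0.924 over 16 mice. mt-Nd1 and mt-Nd2 were the closest pair and mt-Co1 and mt-Nd6 the least close. The values of a mouse share its library and scaling, and no test was applied. The SD of a single abundant mRNA between mice was 0.37 to 0.50 on the log2 scale, against a median of 0.43 over all features kept. It dropped to 0.04 to 0.19 once the mean of the other 6 was subtracted. mt-Cytb followed that mean most closely, with 0.04 left, and mt-Nd6 least, with 0.19.

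The rRNAs moved as a pair, with r of 0.974 between them, and less closely with the abundant mRNAs, with a median r of 0.729. The rows of the lower range were only loosely tied to the abundant mRNAs, with a median r of 0.343 over 42 pairs and a range of -0.25 to 0.818. When the means of group and library set were both subtracted, this median rose to 0.829 and all 42 pairs were above 0. Among themselves the 6 rows had a median r of 0.754 by the first and 0.697 by the second centring.

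The library sets separated particular mitochondrial rows, while others overlapped. In 5 of 36 rows all 5 libraries that stood apart lay below all of the other 11, against 1.59% of the features kept, and in 0 of 36 rows they lay above, against 0.542%. These rows were mt-Ti, mt-Tw, mt-Th, mt-Atp6 and mt-Co3. mt-Ti, the isoleucine tRNA that follows mt-Nd1, ran from 133 to 309.6 RPKM in the 5 libraries and from 538 to 1871 RPKM in the others. mt-Th, the histidine tRNA after mt-Nd4, ran from 79.9 to 198 and from 260.4 to 1027 RPKM, and mt-Tw, the tryptophan tRNA after mt-Nd2, from 177 to 299.6 and from 419 to 1467 RPKM. All 3 of these tRNAs lie on the plus strand and directly follow an abundant mRNA, but so does mt-Tt after mt-Cytb, whose levels overlapped at 18.2 to 40.1 and 23.9 to 63.9 RPKM. The sequences of mt-Ti (chrM:3706-3774), mt-Tw (chrM:4950-5016) and mt-Th (chrM:11546-11612) are shown with the bases shared with a neighbouring gene in capitals, next to mt-Te (chrM:14071-14139, minus strand), which did not separate.
mt-Ti: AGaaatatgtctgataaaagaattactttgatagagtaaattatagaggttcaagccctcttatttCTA
mt-Tw: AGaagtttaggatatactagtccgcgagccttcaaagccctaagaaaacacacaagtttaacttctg
mt-Th: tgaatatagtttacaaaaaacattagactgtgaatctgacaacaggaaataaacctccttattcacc
mt-Te: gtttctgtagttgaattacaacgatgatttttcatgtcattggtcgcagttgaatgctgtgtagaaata

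Relative to mt-Nd1 in the same mouse, the gap was plainer. Part of this comes from mt-Nd1 itself, whose median was 15899 RPKM in the 5 libraries and 11004 RPKM in the other 11. In RPKM the medians were 24.6 and 40.4 for mt-Co2 and 140 and 175 for mt-Tg, and their ranges overlapped. The same ratio was not taken for features outside the mitochondrial genome, so no share of all features stands beside these gaps. mt-Ti had 1.18% to 1.76% of the level of mt-Nd1 in the 5 libraries and 7.89% to 11.6% in the other 11, a 7.47-fold difference of medians. mt-Th and mt-Tw had 6.12-fold and 5.84-fold differences, mt-Atp6 5.15-fold, mt-Co3 3.62-fold, mt-Co2 2.51-fold, mt-Nd3 1.98-fold and mt-Tg 1.79-fold. On the minus strand, mt-Ta, mt-Tn and mt-Tc also did not overlap, at 3.09-fold, 2.60-fold and 2.35-fold. For mt-Tm the fold was 1.26, for mt-Te 1.13 and for mt-Rnr2 0.974, and for these the sets overlapped. Since the 5 libraries were chosen with their values in view, these gaps are a description and carry no test, and the part of library preparation in them was not tested.

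**Figure D4:**
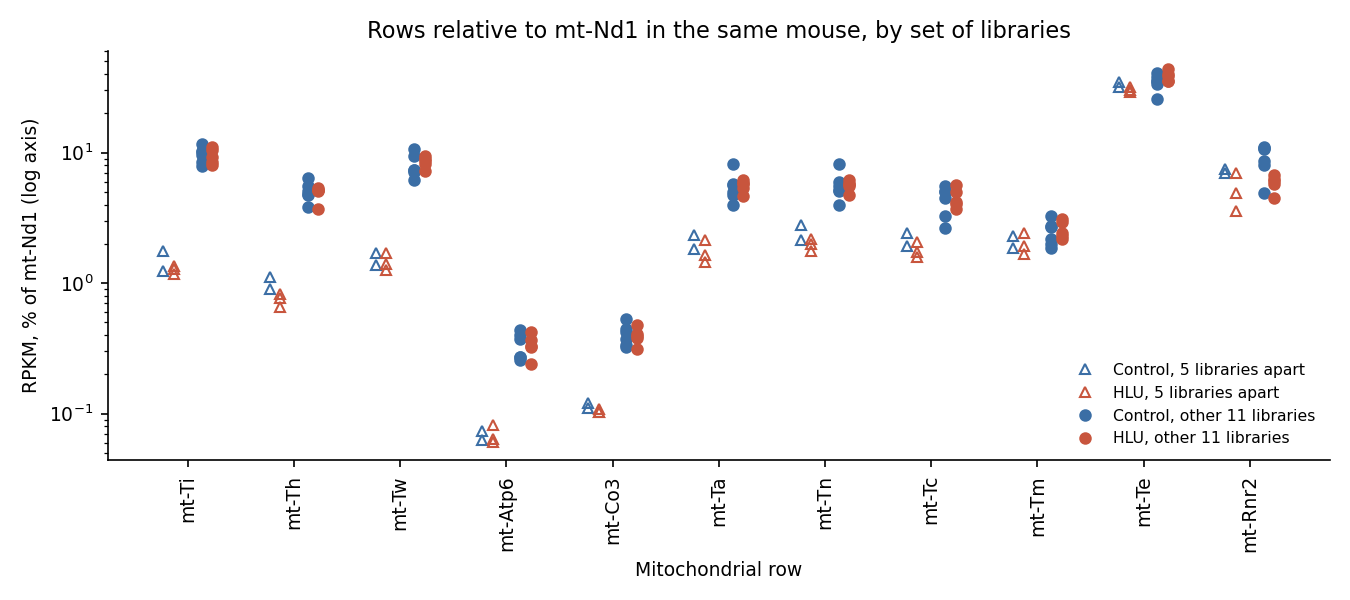
RPKM of 11 mitochondrial rows as a percentage of mt-Nd1 in the same mouse, on a log axis, with open triangles for the 5 libraries that stood apart, filled circles for the other 11, Control in blue and HLU in red. mt-Ti, mt-Th, mt-Tw, mt-Atp6 and mt-Co3 separate the sets by 3.62-fold to 7.47-fold, while mt-Tm, mt-Te and mt-Rnr2 overlap.

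The level of mt-Co1 was compared across mice with marker genes of the cell types that cortical bone can hold. Bones with more erythroid RNA had less mt-Co1. The summed RPKM of 9 of 11 listed erythroid genes, among them the haemoglobin genes Hba-a1 and Hbb-b1, ran from 3041 through a median of 3869 to 8672 in Control and from 1661 through 2625 to 4472 in HLU mice, and none of the 9 was at 0 throughout. After subtraction of the group means from log2 values, Pearson's r with mt-Co1 was -0.81 (permutation p = 0.00029, adjusted p = 0.00348 over 12 relations) and Spearman's rho was -0.835 (permutation p = 0.0002, adjusted p = 0.0024; n = 16 mice). The correlation was -0.866 among the 8 Control and -0.776 among the 8 HLU mice. Without the 2 mice farthest from the median of the erythroid sum, r was -0.737 (permutation p = 0.0071, adjusted p = 0.0848), and in the other 11 libraries it was -0.69 (permutation p = 0.0302, adjusted p = 0.181). Both values are parts of one library's total, and after median-of-ratios scaling r was -0.744 (permutation p = 0.0020, adjusted p = 0.0241).

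The 3 mice with the least erythroid RNA, HLU 1, HLU 4 and HLU 7, were the same 3 that had a higher mitochondrial share than any Control mouse. Control 7, with the most erythroid RNA, had the lowest share of all, 14.05%. Mean log2 erythroid RNA was 0.67 lower in HLU than in Control mice, while osteocyte RNA was 0.51 and adipocyte RNA 0.32 higher. Other markers shifted as well. Slow muscle RNA was 0.47, B cell RNA 0.36, Myh7 0.28 and neutrophil RNA 0.15 lower. Klhl41 was 0.53, brown adipocyte RNA 0.30, osteoclast RNA 0.12 and osteoblast RNA 0.02 higher. All of these sums overlapped between the groups. The part of these cell types in the group difference of the mitochondrial rows was not tested.

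None of the other relations passed an adjusted p of 0.05 with only the group means subtracted. For osteocyte, osteoblast and osteoclast genes r was -0.173, -0.055 and -0.228, for neutrophil and B cell genes -0.302 and -0.45, and for adipocyte and brown adipocyte genes 0.025 and 0.264. For read depth it was 0.094. Only Myh7 of 15 listed skeletal muscle genes was found in the tables (r = -0.018), so muscle was read from 2 further sets added after the data had been seen. For the summed slow muscle genes Tnnt1, Tnni1, Tnnc1 and Myh7 r was 0.093. Klhl41, a sarcomere protein of muscle fibres, ran from 33.4 to 146.8 RPKM in Control and from 28.5 to 194.4 RPKM in HLU mice. Its r was 0.48 (permutation p = 0.0778, adjusted p = 0.375). Once the means of the library sets were subtracted too, r for Klhl41 was 0.745 (permutation p = 0.0029, adjusted p = 0.0307). By that centring r was only 0.078 for Myh7 and 0.183 for the slow muscle genes. Klhl41 and the library sets were both chosen after the data had been seen.

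**Figure D5:**
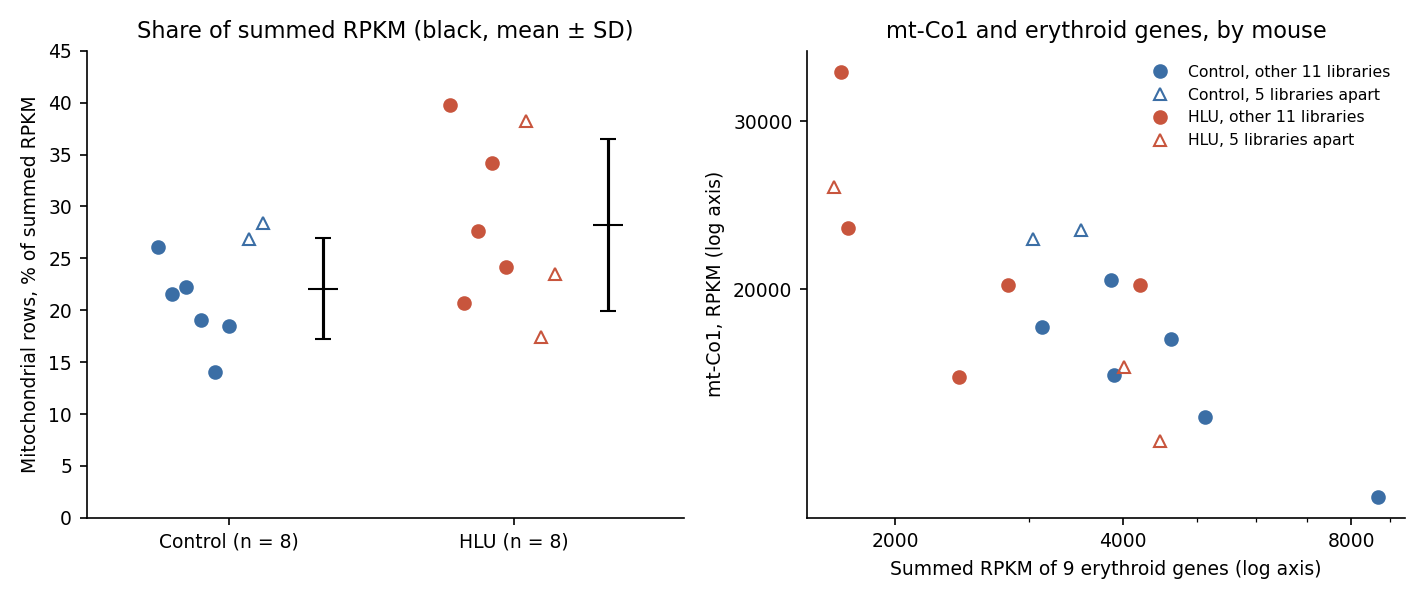
Left, share of summed RPKM taken by the 36 mitochondrial rows in each mouse, with the mean ± SD of 8 mice in black. Right, RPKM of mt-Co1 against the summed RPKM of 9 erythroid genes, both on log axes, with Control in blue, HLU in red and open triangles for the 5 libraries that stood apart. The shares overlap at 14.05% to 28.4% and 17.5% to 39.8%, and mt-Co1 falls as erythroid RNA rises within either group.

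Most nuclear genes that serve the mitochondrial genome had estimates below 0, as most features did. Of the 14 tested genes for transcription and replication of mitochondrial DNA, 4 had estimates above 0 and 10 below, with a median log2 fold change of -0.06, and none was called, where 5.87% of all features were. Lists this short hold few calls at that share, here and in the lists that follow. Tfam, which packages mitochondrial DNA and starts its transcription, was at 10.6 ± 1.18 RPKM (SD, n = 8) for Control and 10.3 ± 1.55 for HLU (log2 fold change -0.05, SE 0.11). The polymerase gene Polrmt was not analysed here. Of the 26 tested genes for processing and decay of mitochondrial RNA, 4 lay above 0 and 22 below, with a median of -0.10, equal to that of all features, and none was called. Lrpprc, which stabilises mitochondrial mRNAs, had -0.09 (SE 0.10).

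Among 10 tested regulators of mitochondrial biogenesis, 3 were above 0 and 7 below, with a median of -0.14 and no call. Ppargc1a, the coactivator PGC-1α, was at 1.14 ± 0.433 RPKM in Control and 1.65 ± 1.01 in HLU mice, a log2 fold change of 0.35 (SE 0.33, adjusted p = 0.781 in limma). Of 80 listed nuclear subunits of the respiratory chain, 28 were tested and the others were not analysed here. 10 were above 0 and 18 below, with a median of -0.04. One of the 28, Cox6a1, a subunit of cytochrome c oxidase, was called lower, at 62.4 ± 18.1 RPKM in Control and 44.5 ± 9.34 in HLU mice (log2 fold change -0.46, SE 0.18, adjusted p = 0.744 in limma), where 4.76% of all features were called lower. Ndufb6, Ndufc2, Sdhd and Atp5g3 of this list separated the 2 library sets without overlap. Of all features kept, 1.59% had all 5 libraries that stood apart below the other 11, and 0.542% had them above. Ndufb6, Ndufc2 and Atp5g3 were lower in the 5 libraries, and Ndufb6 had already served above to describe them.

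The genes whose levels were most like the mean of the 13 mitochondrial mRNAs were sought among 11345 nuclear features averaging 2 RPKM or more. Features that shared their symbol with another, or whose symbol read as a date, were left out. Likeness was the correlation of group-centred log2 values over 16 mice. The 10 closest were Ttc19 (r = 0.932), Ndufa6 (0.930), Fam210a (0.910), Ccdc43, Hibadh, Atpaf1, Mpp6, Dnajc21, Rnf217 and Spryd7 (0.879). Ttc19 is an assembly factor of complex III, Ndufa6 a subunit of complex I, Atpaf1 an assembly factor of ATP synthase and Hibadh an enzyme of valine breakdown in mitochondria. Ndufa6 had a mean of 149.6 RPKM and a log2 fold change of 0.18 (SE 0.14) between the groups. The mean of the 13 mRNAs includes the 6 rows of the lower range, and with the 7 abundant mRNAs alone the same genes had r of 0.446 (Spryd7) to 0.738 (Hibadh). With library sets centred as well, they had 0.834 to 0.941.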

How the data were processed

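Femoral cortical bone RNA of 8 Control and 8 HLU mice was sequenced from TruSeq libraries, 8 to a lane. Per the labels, the authors aligned reads with TopHat2 to mm9, and their notes name DESeq2 (versions not given in the sources used here). The deposited values are RPKM, 1 column per mouse; no comparison by the authors is included. The pairing of columns and mice followed the labels, and 0 columns were left unmapped.

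RPKM steps gave whole reads for 29628 of 29628 features above 0 (tolerance 1e-05 reads plus 1e-08 per read), which yielded the depth. In this recovery the lengths of all 36 mitochondrial rows equalled those of GENCODE M21. Reads carry no molecular identifiers, so counting intervals would cover counting error only. Limma 3.58.1 (R 4.3.3, trended variance, Benjamini-Hochberg over all features) was run on log2(RPKM + 0.1); fold changes on this scale understate changes of low genes. Tested on simulated data of 16973 features at 8 against 8, the limma step recovered 141 of 200 features changed 2-fold, with 8 false calls. Smaller changes were not simulated. The simulated features varied independently, without sets of libraries, and those changed were nuclear. These counts therefore do not give the error rates of the real data. Permutation tests used scipy 1.17.1 and numpy 2.4.6, with 100000 permutations within groups for correlations. Copies were sought with BLAST 2.17.0 among GENCODE M21 transcripts (GRCm38), a later build than mm9; coordinates printed are of GRCm38. Named were all mRNA and rRNA rows, the 5 tRNA rows with the highest means, nuclear list genes that were called (otherwise Polrmt, Tfam, Lrpprc and Ppargc1a), the 10 nuclear features most like the mRNA mean, and marker lists by their sums. Members and lists were chosen with earlier results of these data known. In the tables, 3887 features share the symbol Rnf135 and were not named. Other rows were named after their values were seen. Alternatives covered pseudocount, filter, scaling, replicate block, voom on recovered reads, single mice left out, and, added after seeing the data, sets of libraries.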

Additional observations from a re-analysis of the deposited data

Results flagged for a closer look

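In each group of 8 mice, the highest and the lowest value were compared with the rest by the gap to the nearest mouse over the range of the group, with Dixon's critical value for 8 values. Of 58 such groups, 4 held a mouse beyond it, and chance alone gives about 1 in 20. mt-Rnr2 was at 1234 RPKM in HLU 4, against 600.2 to 850.3 RPKM in the other HLU mice. mt-Tl1, its neighbour on the genome, was at 2044 RPKM in the same mouse, against 516 to 977 RPKM. The ratio of mt-Nd1 to mt-Rnr2 was 20.4 in Control 5, against 9.12 to 14.4 in the other Control mice. The ratio of mt-Nd2 to mt-Nd1 was 0.820 in HLU 2, against 0.915 to 0.992 in the other HLU mice.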

How the results depend on the processing

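The mitochondrial share was 4.49 to 7.68 points higher in HLU when single mice were left out, 3.09 points higher in reads on listed features, 8.11 without the 2 smallest libraries and 9.07 without the 5 libraries that stood apart. Calls among mitochondrial mRNA rows numbered 1 with voom on recovered reads, 3 without the 2 smallest libraries and 3 without the 5, and calls among tRNA rows 1, 2 and 5. Of all features, 1.56%, 0.636% and 2.64% were called higher in these settings, in the same order. Of the 26 tested RNA processing genes, 1 was called without the 2 smallest libraries, 2 without the 5 and 1 with the set of libraries as covariate. Of the 10 tested biogenesis regulators, 2 were called without the 5. Of all features, 11.9% were called in either direction without the 5 and 9.7% with the covariate. Lists this short hold few calls at such shares. Scaling outside the mitochondrial genome gave 1 call among transcription and replication genes and 0 among respiratory chain genes, where quantile normalization also gave 0. Leaving out single mice gave 0 to 1 mRNA rows, 0 to 3 tRNA rows, 0 to 3 RNA processing genes and 0 to 2 biogenesis regulators. For the other settings no share of all features called in either direction is given, so their counts are not read against one. The cause of these shifts was not tested.

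The same replicate numbers did not pair the mice, since correlations of their deviations ran from -0.17 to 0.51 and 1 of 8 mice correlated best with its own number. With the replicate block, respiratory chain calls rose to 2 of the 28 tested, and no share of all features is given for that setting. Under that block the ratio of mt-Nd1 to mt-Rnr2 differed by 0.60 (adjusted p = 0.0938, exact sign-flip permutation) and mt-Rnr2 to mt-Rnr1 by -0.14 (adjusted p = 0.0625).

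Some small log2 fold changes changed sign. mt-Rnr1 was 0.024 with median-of-ratios, 0.015 with quantile normalization, 0.072 scaled outside the mitochondrial genome, 0.070 without the 2 smallest and 0.071 without the 5. In the same order mt-Atp8 was 0.0016, 0.035, 0.050, 0.18 and 0.47, and 0.048 with voom. mt-Co2 was 0.022 with quantile normalization, 0.024 scaled outside the mitochondrial genome and 0.10 without the 5, and mt-Co1 was -0.11 with quantile normalization. mt-Ti was 0.042 with median-of-ratios, 0.061 with quantile normalization, 0.090 scaled outside the mitochondrial genome, 0.50 without the 5 and 0.24 with the set covariate. Without the 2 smallest, mt-Atp6 was -0.053, mt-Co3 -0.016, mt-Nd3 -0.0096 and mt-Tw -0.075. Leaving out single mice, mt-Atp6 ran from -0.081 to 0.39, mt-Atp8 from -0.28 to 0.13, mt-Co2 from -0.24 to 0.047, mt-Co3 from -0.082 to 0.32, mt-Nd3 from -0.11 to 0.19, mt-Nd4l from -0.016 to 0.34, mt-Rnr1 from -0.17 to 0.024, mt-Ti from -0.30 to 0.27, mt-Tn from -0.032 to 0.30 and mt-Tw from -0.076 to 0.38.

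Log2 ratios differed between the groups as follows. mt-Nd1 to mt-Rnr2 gave 0.64 without the 2 smallest (adjusted p = 0.0513, exact permutation), 0.58 without the 5 and 0.51 to 0.70 without single mice. mt-Rnr2 to mt-Rnr1 gave -0.12 without the 5 and -0.16 to -0.12 without single mice, and mt-Nd2 to mt-Nd1 gave 0.14 and 0.079 to 0.12. mt-Nd6 to mt-Nd5 gave 0.014 without the 2 smallest and -0.065 to 0.0025 without single mice, mt-Nd6 to mt-Cytb -0.023 with the set covariate and -0.026 to 0.060, and mt-Atp8 to mt-Atp6 0.23 without the 2 smallest and -0.38 to 0.068. The correlation of mt-Co1 with erythroid genes was -0.737 without the 2 farthest mice and -0.69 without the 5. With osteocyte genes it was 0.108 without the 2 farthest mice and 0.112 with the set covariate, with osteoblast genes 0.116 by median-of-ratios and 0.193 with the set covariate, and with Myh7 0.035 by median-of-ratios, 0.141 without the 5 and 0.078 with the set covariate. With adipocyte genes it was -0.302 without the 5, and with Klhl41 0.745 with the set covariate. Depth limits mt-Atp8, mt-Tk and other rows with few reads.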
